A study of Homo sapiens with 10 samples.

Results

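Aminoacyl-tRNA synthetases, the enzymes that join each amino acid to its tRNA, were followed as one gene family in IMR90 cells, a line of human lung fibroblasts. Members were the protein-coding genes named for an amino acid followed by ARS, together with EPRS1, FARSA, FARSB and TARS3. The rule found 38 genes among the 57736 genes of the count table: 21 cytosolic genes and 17 mitochondrial genes, the mitochondrial ones ending in 2. The rule uses names alone. All 38 passed the filter on low counts, the lowest single count of any member being 45, for SARS2.

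RNA was sequenced from 10 samples in 5 groups of 2, and the values deposited are read counts per gene. The mutant knock-in group is titled as METTL3 knockout cells given mutant METTL3, and the wild type knock-in group as knockout cells given wild type METTL3. The METTL3 knockout group is senescent cells titled as knockout with no METTL3 put back; their METTL3 transcript was lowered and not absent, as given below. The senescent control group is titled as senescent cells with a control knockout, and the control group is cells not driven into senescence. The count-table columns of both control groups carry siCTR, the control siRNA. METTL3 is the catalytic subunit of the enzyme that writes N6-methyladenosine on mRNA. In the labels' protocol, IMR90 cells received a retrovirus carrying RAS or the empty vector, were reseeded at day 4, were given siRNA on that day and again with a lentivirus on the next, and were harvested 48 hours later. The mutant knock-in, wild type knock-in, knockout and senescent control groups therefore share the RAS-driven senescence, which the control group lacks. The protocol describes siRNA and not a gene deletion, and it names METTL14 as the siRNA target and the lentiviral insert, while the sample titles and count-table columns name METTL3. The columns of the knockout samples also carry the word vec, which those of the senescent control do not. An empty virus and the lowering of METTL3 therefore cannot be told apart in that comparison. The METTL3 mutation is not named in the sources used here. The labels leave unsaid whether the 2 samples of a group came from different cultures. Each p-value therefore reflects the spread between the sequenced samples alone, and that spread may be technical.

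Cells carry 2 largely separate sets of synthetases. The cytosolic set serves the ribosomes that translate nuclear genes, and the mitochondrial set, also encoded in the nucleus, serves the ribosomes inside the organelle. GARS1 and KARS1 each make both a cytosolic and a mitochondrial enzyme from a single gene, EPRS1 carries the glutamate and the proline activity in 1 protein, and FARSA and FARSB are the α and β subunits of a single enzyme. Mitochondrial glutaminyl-tRNA is made by an amidotransferase, so there is no QARS2. Several cytosolic synthetases form a multisynthetase complex. When tRNAs go uncharged or the endoplasmic reticulum is stressed, kinases of eIF2α raise translation of the transcription factor ATF4, which binds C/EBP-ATF response elements (CARE) and is known to activate many cytosolic synthetase genes. WARS1 is also induced by interferon-γ.

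Sequenced depth was similar across groups, with total counts between 16293975 and 23570266 per sample. METTL3 had 114107 and 147774 CPM (counts scaled to a common library size by the trimmed mean of M-values, TMM) in the mutant knock-in samples, 58385 and 58125 CPM in the wild type knock-in samples, 23.2 and 28.9 CPM in the knockout samples, 47.3 and 57.3 CPM in the senescent control samples and 72.7 and 81.4 CPM in the control samples. The transcript was therefore lowest in the knockout group, where it fell by 1.00 on the log2 scale against the senescent control, and in the knock-ins it exceeded the control level by far and took between 5.86% and 14.2% of all counts. METTL14 was not called in any comparison. HRAS, a member of the RAS family that drives this senescence, had 29.8 and 23.7 CPM in the mutant knock-in samples, 48.7 and 43.4 CPM in the wild type knock-in samples, 40.8 and 39.5 CPM in the knockout samples, 61.0 and 61.3 CPM in the senescent control samples and 14.8 and 14.6 CPM in the control samples. Fibroblast markers were present in all samples, none of the 6 being at 0, but their summed level was 4877 to 5544 CPM in the mutant knock-in samples, 7486 to 7984 CPM in the wild type knock-in samples, 9704 to 10252 CPM in the knockout samples, 9315 to 10025 CPM in the senescent control samples and 13569 to 16913 CPM in the control samples. Summed epithelial markers stayed at or under 10.9 CPM in every sample. Summed endothelial markers were 2.98 to 4.43 CPM in the mutant knock-in samples, 1.71 to 1.77 CPM in the wild type knock-in samples, 0.626 to 0.693 CPM in the knockout samples, 1.096 to 1.43 CPM in the senescent control samples and 1.03 to 1.14 CPM in the control samples. Summed leukocyte markers were 6.74 to 9.31 CPM in the mutant knock-in samples, 3.26 to 5.37 CPM in the wild type knock-in samples, 2.50 to 2.71 CPM in the knockout samples, 3.10 to 3.51 CPM in the senescent control samples and 1.23 to 1.39 CPM in the control samples. KDR of the endothelial list and PTPRC of the leukocyte list were called higher in both knock-ins against the knockout. Of the 6 fibroblast markers, 6 were called lower in the mutant and 5 in the wild type knock-in against the knockout. In the knockout against the senescent control, 2 were called higher. In the senescent control against the control, all 6 were called lower, and the 2 leukocyte markers tested were called higher. The part of the HRAS and marker differences in the synthetase results was not tested. In bulk RNA, fewer cells of a type and less RNA per cell cannot be told apart. Of the 5 replicate pairs, the control pair was the least alike.

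Cytosolic synthetase transcripts were far more abundant than mitochondrial ones. Per kb of exon, the mean level over the 10 samples had a median of 18.2 CPM per kb over the cytosolic genes and 3.82 CPM per kb over the mitochondrial genes. The cytosolic range ran from 4.39 CPM per kb for TARS3, a second cytosolic threonyl-tRNA synthetase, to 71.9 CPM per kb for GARS1. Mitochondrial genes ran from 1.21 CPM per kb for VARS2 to 25.3 CPM per kb for IARS2, so the most abundant mitochondrial transcripts overlapped the cytosolic range. Summed over the 21 cytosolic genes, the level was 3098 ± 105 CPM in the mutant knock-in, 3239 ± 45.5 CPM in the wild type knock-in, 2568 ± 30.5 CPM in the knockout, 2817 ± 25.5 CPM in the senescent control and 2765 ± 80.2 CPM in the control (SD, n = 2 each). Over the 17 mitochondrial genes it was 344 ± 3.23 CPM in the mutant knock-in, 384 ± 10.3 CPM in the wild type knock-in, 365 ± 0.909 CPM in the knockout, 446 ± 2.47 CPM in the senescent control and 543 ± 15.4 CPM in the control (SD, n = 2 each). The cytosolic sum was highest in the knock-ins and the mitochondrial sum in the control. The ratio of the cytosolic to the mitochondrial sum was 9.0 ± 0.390 in the mutant knock-in, 8.44 ± 0.109 in the wild type knock-in, 7.04 ± 0.066 in the knockout, 6.32 ± 0.022 in the senescent control and 5.09 ± 0.292 in the control (SD, n = 2 each). These sums are given as descriptions, without a test.

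**Figure D1:**
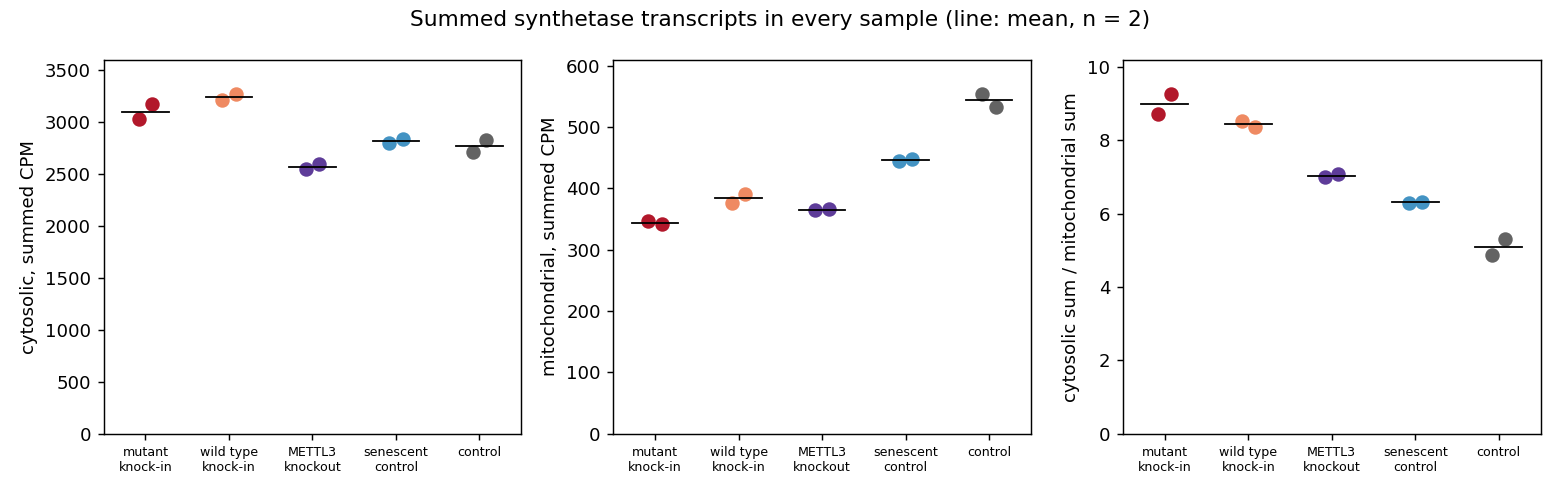
Summed TMM-scaled CPM of the 21 cytosolic synthetase genes, the same sum for the 17 mitochondrial genes, and the ratio of the cytosolic to the mitochondrial sum. Each point is 1 sample, lines are means of 2 samples, and all axes start at 0. The ratio runs from 4.89 in a control sample to 9.28 in a mutant knock-in sample.

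The promoters of the family carry a letter pattern that bears on the synthetases known as ATF4 targets. The core of the CARE motif, TGATGNAA on either strand, was searched in RefSeq promoter windows (build GRCh38.p14) of 300 bases, from 250 before to 50 after the transcription start. Windows were found for 30 of the 38 genes. Those of AARS2, LARS1, TARS3, VARS1, VARS2 and YARS1, among others, are not included here. The core was present for 7 of 16 cytosolic genes (43.8%), 1 of 14 mitochondrial genes (7.14%) and 1217 of all 27305 genes in the table (4.46%). The mitochondrial gene was YARS2. Of the 23 ATF4 target genes outside the family that had a window, 8 (34.8%) held it. The stretches around the core in the cytosolic genes are shown because 6 of these 7 genes rose in both knock-ins, with the match in capitals, each read 5′ to 3′ on the strand of the gene. They lie at chr16:70289674-70289733 (AARS1, minus strand), chr11:3057406-3057465 (CARS1, minus), chr5:33440927-33440986 (TARS1, plus), chr12:57488024-57488083 (MARS1, plus), chr9:92293691-92293750 (IARS1, minus), chr7:30594805-30594864 (GARS1, plus) and chr18:57621813-57621862 (NARS1, minus).
AARS1: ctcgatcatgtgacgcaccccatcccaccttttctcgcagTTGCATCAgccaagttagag
CARS1: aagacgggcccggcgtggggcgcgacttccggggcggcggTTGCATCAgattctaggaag
TARS1: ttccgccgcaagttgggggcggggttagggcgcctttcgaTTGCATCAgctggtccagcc
MARS1: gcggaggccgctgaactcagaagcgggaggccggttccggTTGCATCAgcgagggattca
IARS1: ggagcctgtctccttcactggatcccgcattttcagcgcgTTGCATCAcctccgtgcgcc
GARS1: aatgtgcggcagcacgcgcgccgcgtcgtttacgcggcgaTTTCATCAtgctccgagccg
NARS1: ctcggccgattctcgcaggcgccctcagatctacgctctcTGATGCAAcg
The first 5 share the 8 letters TTGCATCA, the core read on the other strand, GARS1 differs from them in 1 letter, and NARS1 holds the core on the gene's own strand. Measured from the start site, the match begins at -187 in AARS1, -2 in CARS1, 2 in TARS1, -4 in MARS1, -13 in IARS1, -33 in GARS1 and 14 in NARS1. FARSB, KARS1 and QARS1, which fell in the knock-ins, had a window with no match. Their 60 bases before the start lie at chr2:222656093-222656152, chr16:75647666-75647725 and chr3:49104758-49104817, all on the minus strand.
FARSB: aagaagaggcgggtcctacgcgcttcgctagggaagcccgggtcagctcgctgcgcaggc
KARS1: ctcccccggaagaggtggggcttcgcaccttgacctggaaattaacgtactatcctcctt
QARS1: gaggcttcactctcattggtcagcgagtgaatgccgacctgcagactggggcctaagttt
A match is a description of the letters and not a binding site, and a window without one says nothing about ATF4.

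Each knock-in was compared with the knockout. METTL3 transcript in the knock-ins was far above its level in both control groups, as given above. The return of METTL3 and its excess therefore cannot be told apart in these comparisons. HRAS was also lower in the mutant knock-in than in the knockout, with a log2 change of -0.59. The level of HRAS thus cannot be told apart from that of METTL3 there. In the wild type knock-in against the knockout, 9 of 21 cytosolic genes rose and 5 fell, where 18.5% of all 16760 genes tested rose and 14.8% fell (edgeR quasi-likelihood test, Benjamini-Hochberg adjusted p under 0.05). In the mutant knock-in against the same knockout samples, 10 of 21 cytosolic genes rose and 6 fell, where 24.1% of all genes rose and 24.3% fell. The median log2 change of the cytosolic genes was 0.24 in the mutant and 0.22 in the wild type knock-in, beside 0.01 in the mutant and 0.02 in the wild type knock-in over all genes. The share that rose and the share that fell were each above that of all genes in both comparisons, so the family moved in both directions. The share that fell in the mutant lay nearest to that of all genes. Both comparisons use the same 2 knockout samples, so their values are set side by side and are not independent of each other. The word called is used below for an adjusted p under 0.05 in this test, and log2 changes carry their standard error (SE).

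AARS1, which charges alanine tRNA, moved most in the family. It had 222 and 260.4 CPM in the mutant knock-in samples, 194 and 197 CPM in the wild type knock-in samples, against 70.7 and 70.2 CPM in the knockout samples. Every knock-in sample stood above both knockout samples by more than the spread within any group. The log2 change was 1.78 in the mutant (SE 0.11, adjusted p = 2.98e-07) and 1.47 in the wild type knock-in (SE 0.11, adjusted p = 2.32e-06), or 3.42-fold in the mutant and 2.78-fold in the wild type knock-in. CARS1, the cysteinyl-tRNA synthetase, had 164 and 179 CPM in the mutant knock-in samples, 149 and 152 CPM in the wild type knock-in samples, against 81.0 and 83.4 CPM in the knockout samples. Its log2 change was 1.06 in the mutant (SE 0.09, adjusted p = 3.03e-06) and 0.87 in the wild type knock-in (SE 0.09, adjusted p = 2.45e-05). AARS1 and CARS1 in the mutant and AARS1 in the wild type knock-in were the called changes of at least 2-fold in the family. YARS1, which charges tyrosine tRNA, had 185 and 196 CPM in the mutant knock-in samples, 177 and 182 CPM in the wild type knock-in samples, against 102 and 102 CPM in the knockout samples. Its log2 change was 0.90 in the mutant (SE 0.09, adjusted p = 1.07e-05) and 0.81 in the wild type knock-in (SE 0.09, adjusted p = 4.3e-05).

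The other cytosolic genes that rose in both knock-ins changed less. WARS1, the interferon-inducible tryptophanyl-tRNA synthetase, had 196 and 199 CPM in the mutant knock-in samples, 213 and 203 CPM in the wild type knock-in samples, against 117 and 126 CPM in the knockout samples. Its log2 change was 0.70 in the mutant (adjusted p = 0.000153) and 0.78 in the wild type knock-in (adjusted p = 0.000139), each with an SE of 0.10. The groups did not overlap for WARS1, nor for any other member called in either comparison. With 2 samples per group this was common: it held for 35 of all 38 members in the mutant and 30 in the wild type knock-in. Members that were not called are among them, and the share over all genes was not computed. TARS1, the main threonyl-tRNA synthetase, had a log2 change of 0.74 in the mutant and 0.61 in the wild type knock-in, and MARS1, the methionyl-tRNA synthetase that charges both initiator and elongator tRNA, had 0.70 in the mutant and 0.75 in the wild type knock-in. SARS1, for serine, had 0.49 in the mutant and 0.54 in the wild type knock-in. IARS1, for isoleucine, had 0.40 in the mutant and 0.44 in the wild type knock-in. GARS1, whose gene serves both compartments, had 325 and 349.6 CPM in the mutant knock-in samples, 366 and 370.2 CPM in the wild type knock-in samples, against 270.1 and 276 CPM in the knockout samples. The GARS1 log2 change was 0.31 in the mutant (adjusted p = 0.00865) and 0.43 in the wild type knock-in (adjusted p = 0.00163), each with an SE of 0.08. TARS3 was called in the mutant, with a log2 change of 0.35 (SE 0.12, adjusted p = 0.0264), and not in the wild type knock-in, with 0.22 (adjusted p = 0.178). TARS3 was not called between the mutant and the wild type knock-in.

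FARSB, QARS1, KARS1, RARS1 and VARS1 fell in both knock-ins. FARSB, the β subunit of phenylalanyl-tRNA synthetase, had 31.8 and 32.8 CPM in the mutant knock-in samples, 42.0 and 45.8 CPM in the wild type knock-in samples, against 63.8 and 62.8 CPM in the knockout samples. Its log2 change was -0.97 in the mutant (SE 0.10, adjusted p = 1.02e-05) and -0.53 in the wild type knock-in (SE 0.10, adjusted p = 0.00124). FARSB was lowest in the mutant samples and highest in the knockout samples, and no 2 of these groups overlapped. QARS1, for glutamine, had 54.6 and 48.5 CPM in the mutant knock-in samples, 62.6 and 67.1 CPM in the wild type knock-in samples, against 88.2 and 93.8 CPM in the knockout samples. Its log2 change was -0.82 in the mutant (adjusted p = 3.91e-05) and -0.49 in the wild type knock-in (adjusted p = 0.00241). KARS1, the lysyl-tRNA synthetase of both compartments, had 68.9 and 66.4 CPM in the mutant knock-in samples, 82.2 and 88.6 CPM in the wild type knock-in samples, against 116 and 109 CPM in the knockout samples. GARS1 and KARS1, both genes that serve the 2 compartments, thus moved in opposite directions: the KARS1 log2 change was -0.73 in the mutant (adjusted p = 3.93e-05) and -0.40 in the wild type knock-in (adjusted p = 0.00458). RARS1, for arginine, had 106 and 95.2 CPM in the mutant knock-in samples, 127 and 136 CPM in the wild type knock-in samples, against 171 and 165 CPM in the knockout samples. VARS1, for valine, had 54.1 and 52.9 CPM in the mutant knock-in samples, 54.8 and 66.6 CPM in the wild type knock-in samples, against 80.2 and 81.5 CPM in the knockout samples. The log2 changes of RARS1 were -0.74 in the mutant and -0.35 in the wild type knock-in, and those of VARS1 were -0.60 in the mutant and -0.41 in the wild type knock-in. FARSA, the α subunit that pairs with FARSB, had 28.9 and 27.7 CPM in the mutant knock-in samples, 35.4 and 37.9 CPM in the wild type knock-in samples, against 37.4 and 38.3 CPM in the knockout samples. It fell in the mutant (log2 change -0.42, SE 0.09, adjusted p = 0.00303) and had a log2 change of -0.04 in the wild type knock-in, where it was not called.

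**Figure D2:**
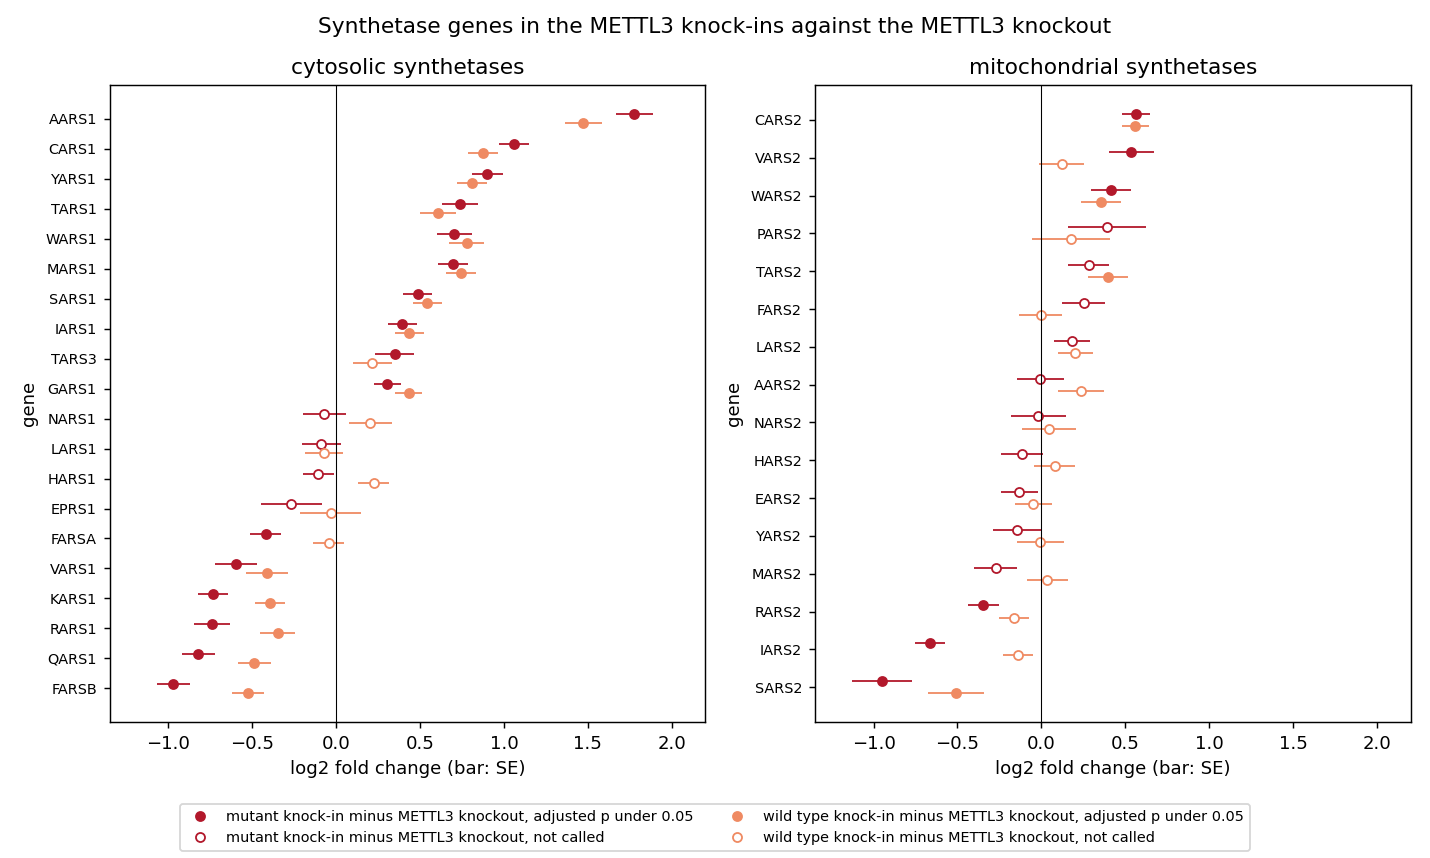
Log2 fold change of 20 cytosolic and 16 mitochondrial synthetase genes in the mutant knock-in and in the wild type knock-in, each against the METTL3 knockout (bars: SE; filled points: adjusted p under 0.05). AARS1 leads the cytosolic genes at 1.78 in the mutant and 1.47 in the wild type knock-in, FARSB is lowest at -0.97 in the mutant and -0.53 in the wild type knock-in, and mitochondrial changes lie between -0.95 and 0.56.

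EPRS1, HARS1, LARS1 and NARS1 were called in neither knock-in against the knockout, with log2 changes between -0.27 (EPRS1 in the mutant) and 0.22 (HARS1 in the wild type knock-in). The 8 enzymes of the multisynthetase complex, among them EPRS1, IARS1, LARS1, QARS1, MARS1, KARS1 and RARS1, were divided: 2 rose and 3 fell in each knock-in. Among the 13 cytosolic genes outside the complex, 8 rose and 3 fell in the mutant, and 7 rose and 2 fell in the wild type knock-in. The grouping by complex was chosen after the values were seen and carries no test. Of the 3 scaffold proteins of the complex, AIMP2 fell in the mutant (log2 change -0.32) and AIMP1 in the wild type knock-in (log2 change -0.43), and the third, EEF1E1, was called in neither. Of the 7 cytosolic genes with the CARE core, 6 rose and none fell in each knock-in, with a median log2 change of 0.70 in the mutant and 0.61 in the wild type knock-in. The exception was NARS1, for asparagine, at -0.07 in the mutant and 0.20 in the wild type knock-in. Of the 9 cytosolic genes that had a window without the core, 2 rose and 5 fell in the mutant (median -0.42), and 2 rose and 4 fell in the wild type knock-in (median -0.04). WARS1 and SARS1 were the genes with a window and no core that rose. Among the 5 cytosolic genes without a window, which include YARS1, 2 rose and 1 fell in the mutant. In the wild type knock-in, 1 of them rose and 1 fell. The split by the core carries no test either.

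**Figure D3:**
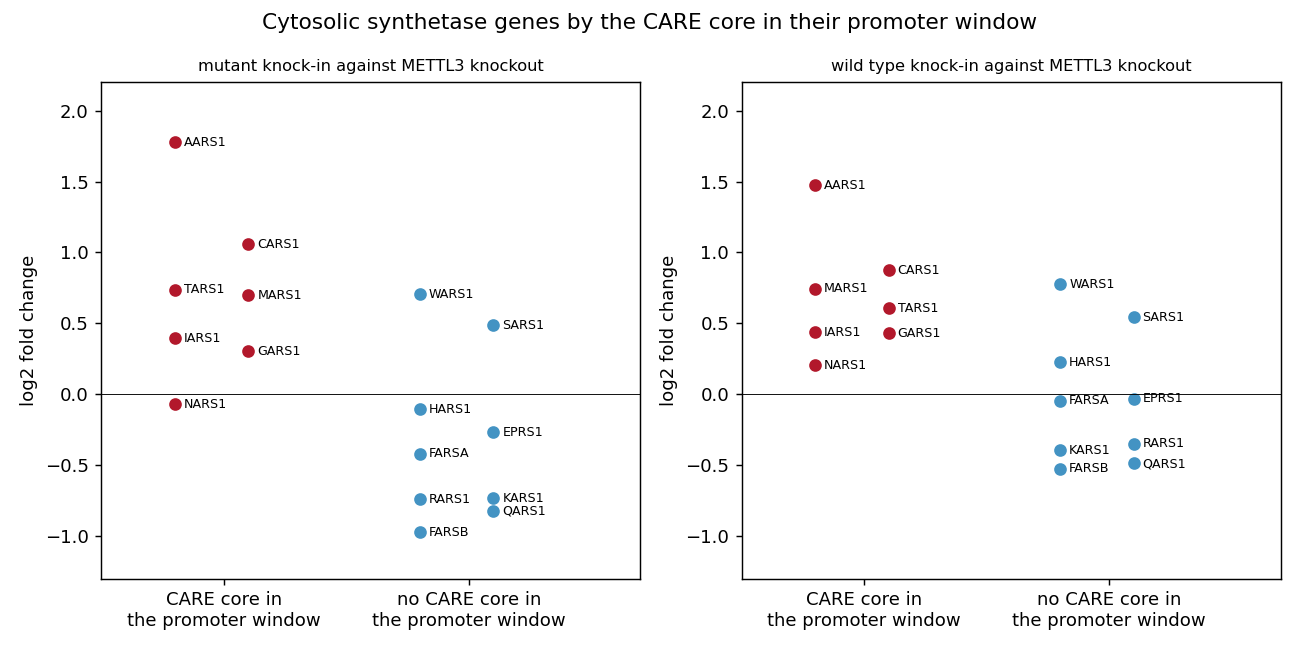
Log2 fold change of the 16 cytosolic synthetase genes that have a RefSeq promoter window, split by whether the window holds the CARE core, in the mutant knock-in and the wild type knock-in against the METTL3 knockout. Each point is 1 gene. Genes with the core lie between -0.07 and 1.78 in the mutant and between 0.20 and 1.47 in the wild type knock-in. Genes without it reach down to -0.97 in the mutant and -0.53 in the wild type knock-in, and WARS1 and SARS1 lie among the genes with the core.

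ATF4, its targets outside the family and eIF2 regulators were measured beside the synthetases. ATF4 itself rose by 0.80 on the log2 scale in the mutant (adjusted p = 1.91e-05) and by 0.67 in the wild type knock-in (adjusted p = 0.000119). Of 28 ATF4 target genes outside the family, 23 rose and 0 fell in the mutant (median log2 change 1.56), and 23 rose and 1 fell in the wild type knock-in (median 1.22), against the medians near 0 over all genes given above. The largest changes were those of ATF3, a stress transcription factor, at 4.49 in the mutant and 4.19 in the wild type knock-in. ASNS, the asparagine synthetase, had 3.35 in the mutant and 3.03 in the wild type knock-in. TRIB3, a pseudokinase induced by ATF4, had 3.08 in the mutant and 2.54 in the wild type knock-in. Of 13 eIF2 kinases, eIF2 subunits and regulators, 5 rose and 7 fell in the mutant, and 4 rose and 2 fell in the wild type knock-in. PPP1R15A, the stress-induced subunit of the eIF2α phosphatase, led both with log2 changes of 1.97 in the mutant and 1.54 in the wild type knock-in. Of 6 interferon-γ target genes tested, the list kept beside WARS1, 4 rose and 0 fell in the mutant, and 3 rose and 1 fell in the wild type knock-in. IRF1, a transcription factor of that response, had log2 changes of 2.10 in the mutant and 1.70 in the wild type knock-in. Of 7 cytosolic elongation and termination factors, which are not known as ATF4 targets, 0 rose and 3 fell in the mutant, and 0 rose and 1 fell in the wild type knock-in. In edgeR, the counts of 0 given for these lists were also 0 at an unadjusted p under 0.05.

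Mitochondrial synthetases moved less in the knock-ins. Of 17 genes, 3 rose and 4 fell in the mutant, and 3 rose and 1 fell in the wild type knock-in, with median log2 changes of -0.02 in the mutant and 0.05 in the wild type knock-in. These counts lie near or under the shares of all genes given above. CARS2, for cysteine, had 63.8 and 65.8 CPM in the mutant knock-in samples, 64.8 and 64.4 CPM in the wild type knock-in samples, against 44.8 and 42.9 CPM in the knockout samples. It rose by 0.56 in both (adjusted p = 0.000145 in the mutant and 0.000271 in the wild type knock-in). SARS2, for serine, had 3.34 and 2.85 CPM in the mutant knock-in samples, 4.27 and 4.15 CPM in the wild type knock-in samples, against 5.54 and 6.41 CPM in the knockout samples. SARS2 fell in both knock-ins, with log2 changes of -0.95 (SE 0.18, adjusted p = 0.000928) in the mutant and -0.51 (SE 0.17, adjusted p = 0.0348) in the wild type knock-in. IARS2, for isoleucine, had 54.5 and 55.7 CPM in the mutant knock-in samples, 76.6 and 81.8 CPM in the wild type knock-in samples, against 84.2 and 90.3 CPM in the knockout samples. The IARS2 log2 change was -0.66 in the mutant (SE 0.09, adjusted p = 7.59e-05), and it was not called in the wild type knock-in. VARS2, for valine, had 13.1 and 14.1 CPM in the mutant knock-in samples, 10.1 and 10.3 CPM in the wild type knock-in samples, against 9.41 and 9.28 CPM in the knockout samples. It rose in the mutant, by 0.54 on the log2 scale (SE 0.13, adjusted p = 0.00529). WARS2, for tryptophan, had 15.4 and 15.9 CPM in the mutant knock-in samples, 14.1 and 15.9 CPM in the wild type knock-in samples, against 12.4 and 11.2 CPM in the knockout samples, and rose in both, by 0.42 in the mutant and 0.35 in the wild type knock-in. TARS2, for threonine, had 14.4 and 15.3 CPM in the mutant knock-in samples, 16.7 and 15.6 CPM in the wild type knock-in samples, against 12.1 and 12.4 CPM in the knockout samples. It rose in the wild type knock-in (log2 change 0.40) and was not called in the mutant (0.28, adjusted p = 0.0777). RARS2, for arginine, fell in the mutant, by 0.35 on the log2 scale. Around the family, 6 of 76 mitochondrial ribosomal proteins rose and 31 fell in the mutant, and 6 rose and 3 fell in the wild type knock-in. Of 11 mitochondrial translation factors, 3 rose and 2 fell in the mutant, and 2 rose and 1 fell in the wild type knock-in.

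The calls against the knockout held in part when the fit was varied. Over 18 other fits, 7 of the 10 cytosolic genes that rose and all 6 that fell in the mutant were called in every one, with GARS1, IARS1 and TARS3 lost in at least 1. In the wild type knock-in all 9 that rose were called in every one, as were FARSB, QARS1 and KARS1 among those that fell. The 5 cytosolic genes that fell in the wild type knock-in became 3 without knockout replicate 1, knockout replicate 2 or wild type knock-in replicate 1. The 3 mitochondrial genes that rose in the wild type knock-in became 1 without either knockout sample, either wild type knock-in sample or mutant knock-in replicate 2. The 1 that fell became 0 without either knockout or either wild type knock-in sample, and 2 without either control sample. Those that rose in the mutant, 3, became 1 without mutant knock-in replicate 2.

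**Figure D4:**
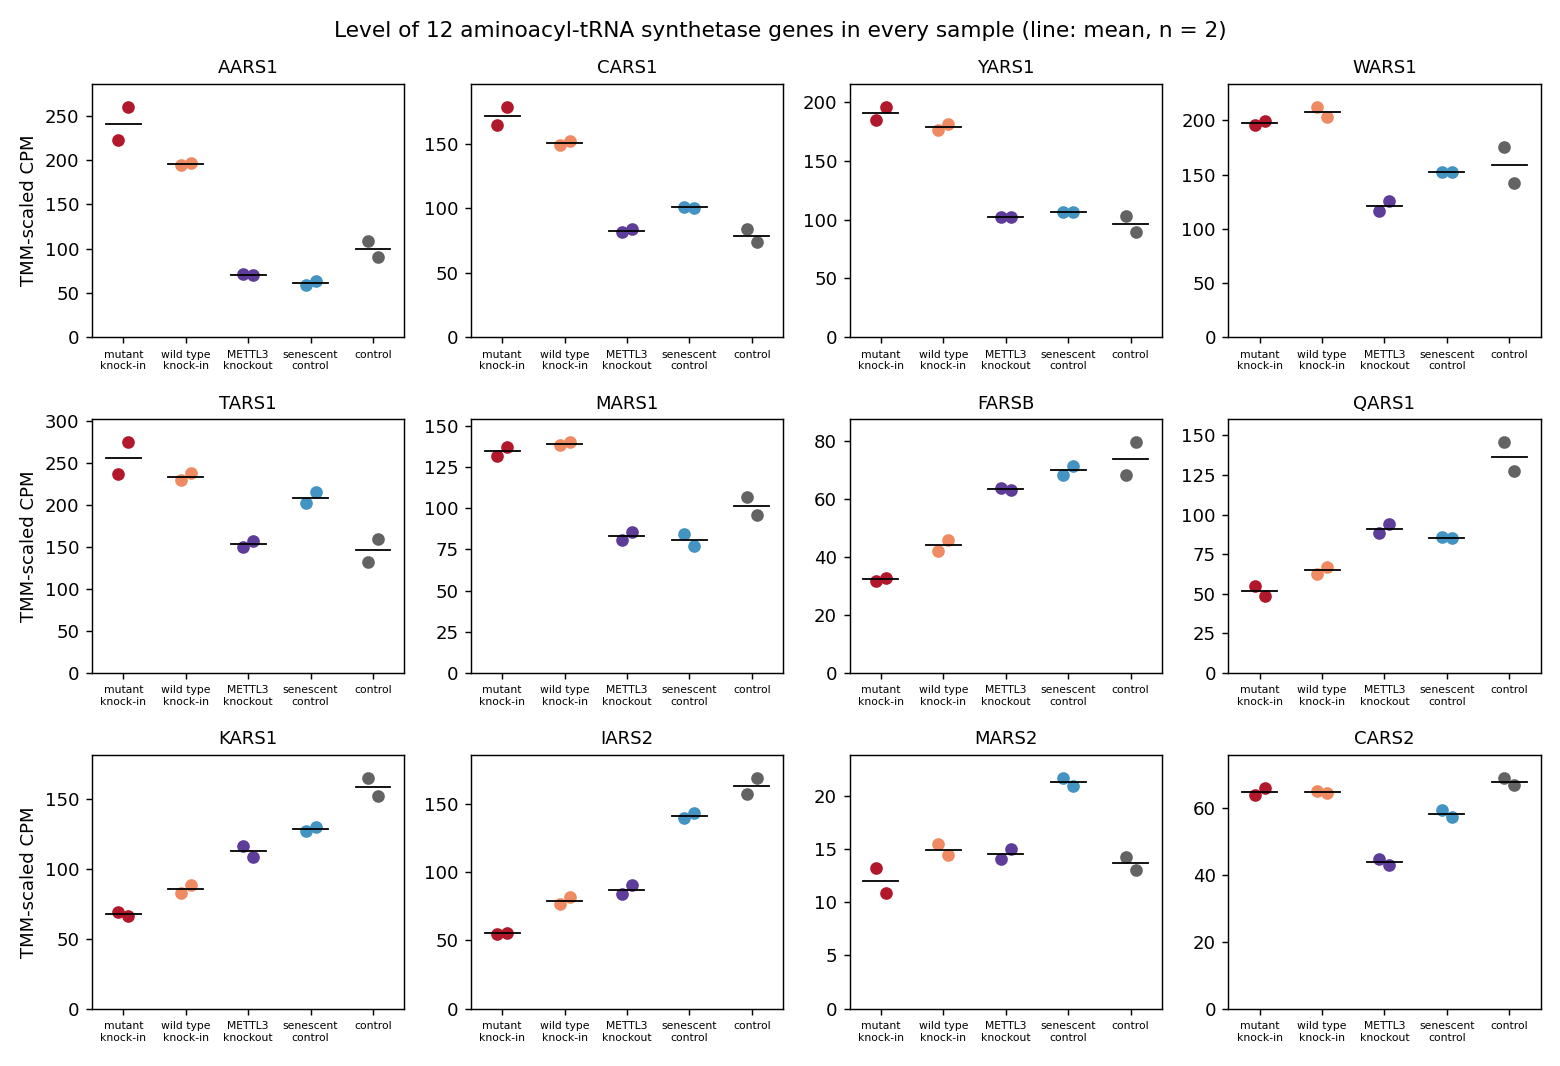
TMM-scaled CPM of AARS1, CARS1, YARS1, WARS1, TARS1, MARS1, FARSB, QARS1, KARS1, IARS2, MARS2 and CARS2 in each of the 10 samples, by group. Each point is 1 sample, lines are means of 2 samples and each axis starts at 0. The 4 knock-in samples of AARS1 sit between 194 and 260.4 CPM, above all others, and IARS2 is lowest in the mutant knock-in, at 54.5 and 55.7 CPM.

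The mutant and wild type knock-ins differed in few synthetases. METTL3 itself was higher in the mutant, with a log2 change of 1.17 (SE 0.14, adjusted p = 0.00127). HRAS was lower, with a log2 change of -0.78 (SE 0.11, adjusted p = 0.00229). The mutation, the level of METTL3 and the level of HRAS therefore cannot be told apart in this comparison. In the mutant, 6 of 21 cytosolic genes and 1 of 17 mitochondrial genes fell and 0 of either class rose, where 5.16% of all genes rose and 7.39% fell. At an unadjusted p under 0.05 in edgeR, 1 cytosolic gene (AARS1) and 1 mitochondrial gene (VARS2) were higher in the mutant, and DESeq2 called 0 of either class higher. At 6 of 21 the cytosolic genes that fell made up a larger share than all genes. With upper-quartile scaling the split over all genes was 1056 higher and 773 lower, against 865 higher and 1238 lower with TMM, and 2 cytosolic genes fell. FARSB had 31.8 and 32.8 CPM in the mutant samples, against 42.0 and 45.8 CPM in the wild type samples, a log2 change of -0.45 (SE 0.10, adjusted p = 0.0148). RARS1 (-0.39), FARSA (-0.38), KARS1 (-0.34), QARS1 (-0.33) and HARS1 (-0.33) were the other cytosolic genes called lower in the mutant. HARS1, for histidine, had 86.7 and 82.7 CPM in the mutant samples, against 104 and 109 CPM in the wild type samples. IARS2 had 54.5 and 55.7 CPM in the mutant samples, against 76.6 and 81.8 CPM in the wild type samples, a log2 change of -0.52 (SE 0.09, adjusted p = 0.00493). AARS1 did not pass the threshold, with a log2 change of 0.30 (SE 0.11, adjusted p = 0.0819). All 6 cytosolic genes that fell were among the 9 with a window and no CARE core, and none of the 7 with the core was called. None of the 7 calls held in all 18 other fits. The cytosolic count of 6 became 0 without mutant knock-in replicate 1, mutant knock-in replicate 2 or wild type knock-in replicate 2. It was 3 without wild type knock-in replicate 1, 2 without senescent control replicate 1, 1 without senescent control replicate 2 or either knockout sample, and 8 without either control sample. Without either control sample, 2 cytosolic genes and 1 mitochondrial gene rose. IARS2 was not called without wild type knock-in replicate 2 or mutant knock-in replicate 2, and the mitochondrial count was 3 without either control sample. Mitochondrial ribosomal proteins, which work with the mitochondrial synthetases, were called lower in the mutant against the wild type knock-in for 12 of 76 genes and higher for 0 (also 0 at an unadjusted p under 0.05 in edgeR), with a median log2 change of -0.25.

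The METTL3 knockout, in which the transcript was lowered and not absent, was compared with the senescent control. HRAS was also lower in the knockout, with a log2 change of -0.61 (SE 0.11, adjusted p = 0.0021 in edgeR). The levels of METTL3 and of HRAS therefore cannot be told apart in this comparison. In the knockout, 1 of 21 cytosolic genes rose and 4 fell, and 0 of 17 mitochondrial genes rose and 3 fell, where 7.17% of all genes rose and 8.62% fell. At an unadjusted p under 0.05 in edgeR, 1 mitochondrial gene (VARS2) was higher in the knockout, and DESeq2 called 0 higher. The shares that fell were above that of all genes, and the medians were -0.08 for the cytosolic genes, -0.08 for the mitochondrial genes and 0.01 for all genes. IARS2 had 84.2 and 90.3 CPM in the knockout samples, against 139 and 143 CPM in the senescent control samples. It showed the lowest log2 change of the family, -0.70 (SE 0.09, adjusted p = 0.00018), and was the 1 call that held in all 18 other fits. MARS2, the mitochondrial methionyl-tRNA synthetase, had 14.1 and 15.0 CPM in the knockout samples, against 21.7 and 20.9 CPM in the senescent control samples (log2 change -0.55, SE 0.12, adjusted p = 0.00777). CARS2 had 44.8 and 42.9 CPM in the knockout samples, against 59.3 and 57.1 CPM in the senescent control samples (log2 change -0.41, SE 0.08, adjusted p = 0.00463). The groups did not overlap for any of these genes, which held for 29 of all 38 members in this comparison, called or not. Here too the share over all genes was not computed. TARS1 had 149 and 157 CPM in the knockout samples, against 202 and 215 CPM in the senescent control samples (log2 change -0.44, SE 0.11, adjusted p = 0.0145). IARS1 had 368 and 377 CPM in the knockout samples, against 483 and 485 CPM in the senescent control samples (log2 change -0.38, SE 0.09, adjusted p = 0.00985). WARS1 had 117 and 126 CPM in the knockout samples, against 152 and 152 CPM in the senescent control samples (log2 change -0.33, adjusted p = 0.0484). CARS1, with 81.0 and 83.4 CPM in the knockout samples, against 100.5 and 100.4 CPM in the senescent control samples, fell by 0.29 on the log2 scale (adjusted p = 0.0496). WARS1 and CARS1 lay just inside the threshold. TARS3 moved the other way, with 21.3 and 19.9 CPM in the knockout samples, against 15.4 and 15.2 CPM in the senescent control samples (log2 change 0.43, SE 0.12, adjusted p = 0.029).

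The cytosolic genes that fell in the knockout, 4, became 0 without any 1 of the knockout or senescent control samples, 2 without any 1 knock-in sample and 8 without either control sample. The 1 that rose became 0 without any 1 of the knockout, senescent control or wild type knock-in samples or without mutant knock-in replicate 2, and 3 without either control sample. The mitochondrial genes that fell, 3, became 1 without senescent control replicate 1 and 5 without either control sample. ATF4 had a log2 change of -0.01 here and was not called, and of its 28 targets outside the family 3 rose and 7 fell. Of the 7 cytosolic genes with the CARE core, 0 rose and 3 fell in the knockout (median log2 change -0.28). Of the 9 with a window and no core, 0 rose and 1 fell (median -0.14). GATC, a subunit of the amidotransferase that completes mitochondrial glutaminyl-tRNA, fell by 0.32 on the log2 scale.

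Senescence was compared with the control in cells with METTL3. In the senescent control, 3 of 21 cytosolic genes rose and 6 fell, and 1 of 17 mitochondrial genes rose and 10 fell, where 19.7% of all genes rose and 25.3% fell. The mitochondrial genes that fell made up a larger share than all genes, and their median log2 change was -0.34, beside -0.06 for the cytosolic genes and -0.03 for all genes. TARS2 had 11.8 and 10.6 CPM in the senescent control samples, against 18.3 and 15.5 CPM in the control samples (log2 change -0.59, SE 0.12, adjusted p = 0.0016). VARS2 had 7.51 and 7.67 CPM in the senescent control samples, against 11.8 and 9.54 CPM in the control samples (log2 change -0.49, adjusted p = 0.0102). EARS2, SARS2, HARS2, FARS2, RARS2, LARS2 and CARS2 also fell, with log2 changes between -0.47 for EARS2 and -0.22 for CARS2. MARS2 was the exception, with 21.7 and 20.9 CPM in the senescent control samples, against 14.3 and 13.0 CPM in the control samples, and rose by 0.64 on the log2 scale (SE 0.12, adjusted p = 0.000879). AARS2, IARS2, NARS2, PARS2, WARS2 and YARS2 were not called.

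Among cytosolic genes, AARS1 fell in senescence, with 58.9 and 63.3 CPM in the senescent control samples, against 108 and 90.3 CPM in the control samples (log2 change -0.70, SE 0.11, adjusted p = 0.000272). QARS1 had 85.8 and 85.2 CPM in the senescent control samples, against 145 and 127 CPM in the control samples (log2 change -0.67, SE 0.10, adjusted p = 0.000148). VARS1 had 90.5 and 95.4 CPM in the senescent control samples, against 141 and 109 CPM in the control samples (log2 change -0.43, SE 0.12, adjusted p = 0.013). MARS1 and KARS1 fell by 0.33 and 0.30 on the log2 scale. TARS1 rose, with 202 and 215 CPM in the senescent control samples, against 132 and 159.6 CPM in the control samples (log2 change 0.51, SE 0.11, adjusted p = 0.00217). CARS1 had 100.5 and 100.4 CPM in the senescent control samples, against 83.4 and 73.7 CPM in the control samples (log2 change 0.35, SE 0.09, adjusted p = 0.0071). IARS1 rose by 0.23, with 483 and 485 CPM in the senescent control samples, against 391 and 436 CPM in the control samples (adjusted p = 0.048). The threonine, cysteine and isoleucine genes that rose in senescence are 3 of the 4 cytosolic genes that fell in the knockout against the senescent control. Those 2 comparisons share the senescent control samples, so opposite signs in them are not independent. EPRS1 was not called, its control samples standing at 145 and 243 CPM and its senescent control samples at 240.2 and 256 CPM. The 10 mitochondrial genes that fell became fewer without control replicate 1, without either senescent control sample and without either knockout sample. The 6 cytosolic genes that fell became 3 and 2 without senescent control replicate 1 and 2 in turn, and the 3 that rose became 7 without control replicate 2, where 6 fell. AARS1, QARS1, CARS1, TARS1, TARS2 and MARS2 were called in all 18 other fits. Around the family, the amidotransferase subunits GATB and QRSL1 fell by 0.82 and 0.53 on the log2 scale. Of 76 mitochondrial ribosomal proteins, 22 fell and 3 rose (median -0.21), where 25.3% of all genes fell and 19.7% rose. Of the 7 cytosolic elongation and termination factors, 5 fell and 1 rose. ATF4 fell by 0.32 on the log2 scale, and of its 28 targets outside the family 7 rose and 10 fell. Of the 7 cytosolic genes with the CARE core, 3 rose and 2 fell in the senescent control (median log2 change 0.23). Of the 9 with a window and no core, 0 rose and 2 fell (median -0.08).

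For most amino acids, the cytosolic and the mitochondrial enzyme come from different genes, which allows a comparison within an amino acid. The 18 pairs use FARS2 and EPRS1 each in 2 pairs, so the pairs are not all separate genes. In the senescent control against the control, the cytosolic log2 change was above the mitochondrial one in 16 of 18 pairs, with a median difference of 0.30. The widest were threonine, at 0.51 for TARS1 and -0.59 for TARS2, and glutamate, at 0.35 for EPRS1 and -0.47 for EARS2. EPRS1 was not called, and its control and senescent control samples overlapped, which limits the glutamate and proline pairs. Alanine and methionine went against this, MARS1 being at -0.33 and MARS2 at 0.64. In the mutant knock-in against the knockout the cytosolic change was above in 10 of 18 pairs (median difference 0.15), and in the wild type knock-in in 12 of 18 (median difference 0.18). Pairs then spread both ways. In the mutant, the alanine pair had log2 changes of 1.78 for AARS1 and -0.01 for AARS2, and the serine pair 0.49 for SARS1 and -0.95 for SARS2. Valine ran the other way, at -0.60 for VARS1 and 0.54 for VARS2, as did phenylalanine, at -0.97 for FARSB and 0.25 for FARS2. Cysteine was a pair in which both genes rose in both knock-ins. In the knockout against the senescent control and in the mutant against the wild type knock-in, 9 of 18 pairs had the higher cytosolic change.

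**Figure D5:**
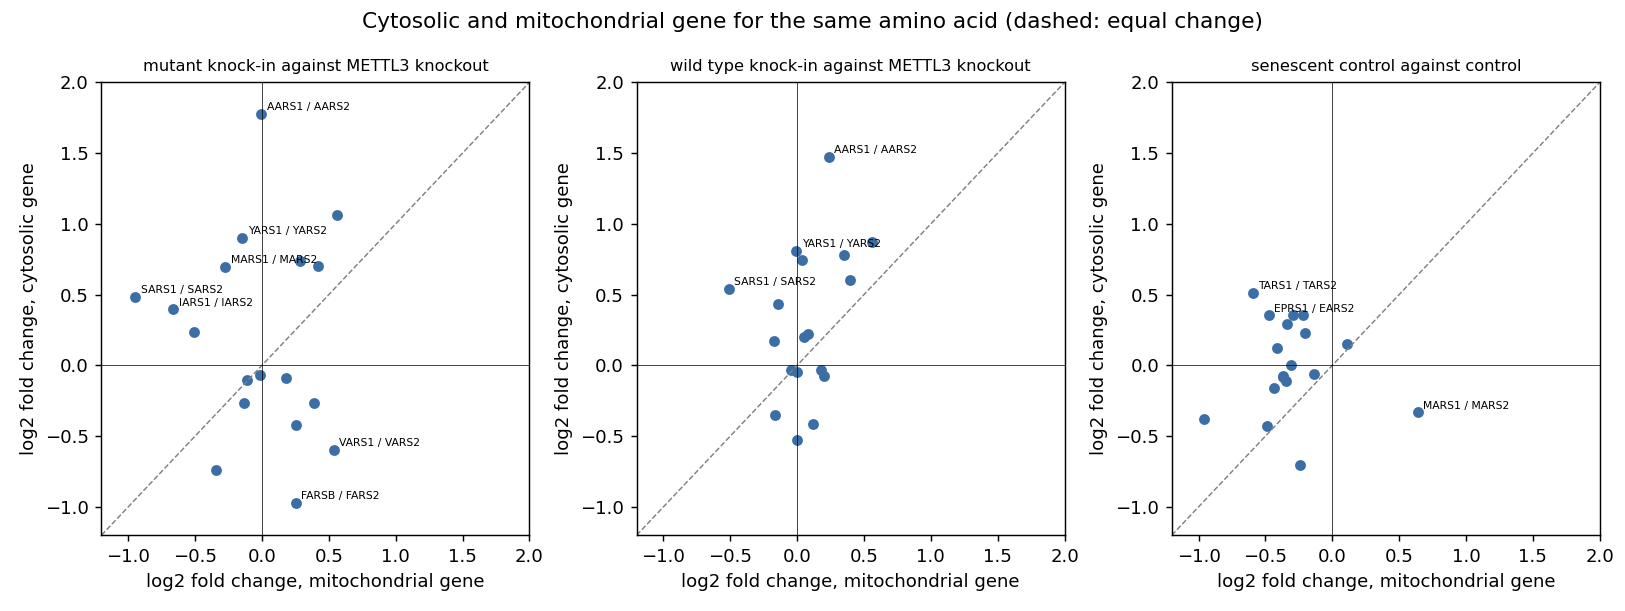
Log2 fold change of the mitochondrial gene (horizontal) and the cytosolic gene (vertical) for the same amino acid, in the mutant knock-in and the wild type knock-in against the METTL3 knockout and in the senescent control against the control. Each point is 1 of 18 pairs and the dashed line marks equal change. In senescence 16 of 18 points lie above the line; in the mutant knock-in 10 do, with AARS1 and AARS2 farthest above it.

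Neighbouring genes limit some of these values. In the GENCODE 29 annotation, exons of 19 of the 38 members overlap another gene, 18 of them a gene on the opposite strand and 3 a gene on the same strand, and the sources used here do not give whether counting used strand, so reads of such partners cannot be told apart where strand was not used. MARS1 shares 355 bases with DDIT3, a stress transcription factor that rose by 2.38 on the log2 scale in the mutant and by 2.27 in the wild type knock-in against the knockout. HARS1 and HARS2, which start 85 bases apart and read away from each other, share 437 bases of exon. SARS2 shares 1492 bases with a gene on its own strand and 349 with MRPS12, and VARS2 shares 1858 bases with GTF2H4 on its own strand. The parts these partners played in the values of MARS1, HARS1, HARS2, SARS2 and VARS2 were not tested.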

How the data were processed

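The authors deposited whole-number read counts per gene for 10 RNA-seq samples, from total-RNA libraries (KAPA RNA HyperPrep, per the labels' protocols). The submitters' processing notes name Bowtie2, RSEM 1.2.12 and hg19. The gene annotation, the use of strand, any rounding and the treatment of reads that match several genes are not stated by the sources used here. Gene symbols came from a table of IDs (39843 of 57736 IDs matched), and exon lengths and overlaps from GENCODE 29, whose build differs, so no coordinates of counted genes are given. Promoter sequences are those of RefSeq on GRCh38.p14.

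From the counts, 1 model with group as the term was fitted over all 10 samples (edgeR 4.0.16, R 4.3.3, filterByExpr with min.count 10, TMM scaling, robust quasi-likelihood F test, 5 residual degrees of freedom). P-values were adjusted by Benjamini-Hochberg over the 16760 genes tested in each comparison, with a threshold of 0.05. The SE is the log2 change divided by the square root of F. The biological coefficient of variation, taken from the common dispersion over all genes, was 9.22%. CPM values are TMM-scaled, and total counts ranged from 16293975 to 23570266. Alternatives were other scalings and filters, DESeq2 1.42.0, only the 2 groups compared, a replicate block and leaving out each sample in turn. The members and gene lists were chosen with earlier results of these data known. All members enter the counts and sums; 2 of them are not reported here by name. Values in every sample are given for the 4 cytosolic and 4 mitochondrial members with the largest called change in each comparison, members called against most of their class, and WARS1, GARS1 and KARS1; a few others were added after their values were seen. At most 3 called genes per other list are named, besides METTL3, HRAS and ATF4; METTL14, EEF1E1 and DDIT3 are named as checks.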

Additional observations from a re-analysis of the deposited data

How the results depend on the processing

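No single called member changed sign under any alternative. The balance of counts did turn once: in senescence, 7 cytosolic genes rose and 6 fell without control replicate 2, against 3 and 6 with all samples. Apart from the fits that leave out a sample, 1541 results for single genes kept their sign and their call or lack of one. Another 110 lost their call, 33 gained one and 26 changed sign without being called in either fit. These counts include the main fit with a log2 change of at least 0.5 also asked, where smaller called changes are among those lost. RLE scaling left every count within 1.5 times. With 2 samples per group, most calls of a small change rest on few libraries, and 45 reads for the lowest member limit SARS2 and the other low mitochondrial genes. The causes of the shifts below were not tested.

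For the senescent control against the control, the mitochondrial genes that fell, 10, became 6 with upper-quartile scaling, with the METTL3 row left out or with min.count 50, 4 with DESeq2, 3 with only the 2 groups compared and 2 where a log2 change of at least 0.5 was also asked. The cytosolic genes that fell, 6, became 2 with only the 2 groups and 2 at the 0.5 limit, where 1 rose. For the knockout against the senescent control, the cytosolic genes that fell, 4, became 2 with upper-quartile scaling, 10 with only the 2 groups and 0 at the 0.5 limit, and those that rose became 0 with DESeq2, 3 with only the 2 groups and 0 at the 0.5 limit; 5 mitochondrial genes fell with only the 2 groups. For the wild type knock-in against the knockout, the mitochondrial genes that fell became 0 with no filter and 0 with DESeq2, those that rose became 1 with DESeq2 and 1 at the 0.5 limit, and the cytosolic genes that fell became 1 at that limit. For the mutant knock-in against the knockout, the cytosolic genes that rose became 6 at the 0.5 limit. For the mutant against the wild type knock-in, the cytosolic genes that fell, 6, became 2 with upper-quartile scaling, 3 with min.count 50 and 0 at the 0.5 limit. In that comparison 1 cytosolic gene rose with min.count 50 and 2 with only the 2 groups, 1 mitochondrial gene rose with upper-quartile scaling, the METTL3 row left out, min.count 50 or only the 2 groups, and 2 mitochondrial genes fell with no filter or only the 2 groups.

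Replicate numbers in the labels were only shared: same-numbered samples did not deviate together, the correlation of their deviations from the group means lying between -0.09 and 0.02 over the 5 comparisons. With the replicate block, 2 cytosolic genes fell in the knockout against the senescent control, against 4 without it, and no other count moved by over 1.5 times.

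With 1 sample left out, the lone sample of a group is assumed to vary like the others. For the senescent control against the control the counts ran from 2 to 7 (cytosolic, rose), 2 to 6 (cytosolic, fell), 1 to 1 (mitochondrial, rose) and 3 to 9 (mitochondrial, fell). For the knockout against the senescent control they ran, in the same order of classes, from 0 to 3, 0 to 8, 0 to 0 and 1 to 5. For the wild type knock-in against the knockout they ran from 9 to 11, 3 to 5, 1 to 3 and 0 to 2. For the mutant knock-in against the knockout they ran from 7 to 11, 6 to 7, 1 to 3 and 4 to 5. For the mutant against the wild type knock-in they ran from 0 to 2, 0 to 8, 0 to 1 and 0 to 3.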
